A study of Mus musculus with 30 samples.

Results

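The 34 genes described here encode the protein folding, translocation and stress machinery of the endoplasmic reticulum (ER). They were taken from a named list of such genes and kept where a deposited expression table lists them. They make up 34 of the 13456 genes that any of the 7 deposited tables lists, and 32 of them stand in all 7 tables. Trib3 is not listed in colon and Ern2 is not listed in colonocytes, which leaves 33 members in each of these, and in colonoids all 34 are listed. By role they fall into 4 stress sensors, 3 transcription factors with the pseudokinase Trib3, 5 chaperones and lectins, 4 J proteins and partners, 4 disulfide isomerases, 2 secreted or luminal stress proteins, 4 genes of ER-associated degradation, 6 translocon and signal-sequence receptor genes and 1 retrieval receptor.

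The study sequenced mRNA of 30 mouse libraries in 10 groups of 3, from 3 experiments on Smad4, the shared transducer of TGFβ and BMP signals. Colon epithelium came from C57BL/6J mice, either Smad4+ controls or Smad4ΔLrig1 animals, in which Smad4 was deleted (the allele is named after Lrig1, a gene of intestinal stem and progenitor cells). Colonocytes labelled IMCfl/fl Smad4+ were grown in culture and received no ligand, TNF, TGFB1 together with BMP2, or the 3 combined, and all carried Smad4. The sources used here do not give their doses or treatment times, nor what separates 1 colonocyte replicate from another, so p-values measure the spread between these samples. Colonoids, epithelial organoids grown from colon, came from the lines L42, L43 and L46 and received vehicle, TNF at 100 ng/mL, TGFB1 at 3 ng/mL with BMP2 at 10 ng/mL, or all 3.

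Smad4 checked the knockout label, with 47.8, 59.2 and 46.1 CPM in Smad4ΔLrig1 libraries beside 132, 148 and 152 CPM in the Smad4+ ones. CPM are reads scaled per library by the authors' normalization, which did not bring the libraries to a common total of listed reads. In the comparison of TGFB1 with BMP2 against vehicle in colonoids, CPM summed to 892492 for L42 with vehicle and 1.15e+06 for L43 treated. The depth, as reads recovered from the CPM values, was 42.2 to 61.7 M per colonoid library, 21.6 to 42.9 M per colonocyte library and 23.2 to 28.6 M per colon library. In colon and colonoids all 12 epithelial marker genes examined were listed. The libraries labelled colonocytes did not carry that profile. Their TGFB1 with BMP2 table listed 3 of the 12 epithelial markers (Krt8, Krt18 and Krt19), summing to 33.8 to 45.9 CPM in untreated cultures, and none of 8 absorptive colonocyte markers. It listed 8 of 9 stromal markers, collagens and Vim among them, summing to 7010 to 7472 CPM in the same libraries. They are called colonocytes below only because that is their label.

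Proteins bound for secretion enter the ER through the Sec61 channel, are folded by chaperones and disulfide isomerases, and are returned to the cytosol for degradation when folding fails. When unfolded protein accumulates, the sensors IRE1α (Ern1), PERK (Eif2ak3) and ATF6 start the unfolded protein response, in which XBP1, cleaved ATF6 and ATF4 raise transcription of the folding machinery and, under lasting stress, of Ddit3 (CHOP). Secretory cells such as goblet cells, which make intestinal mucus, carry much of this machinery and also use IRE1β (Ern2), a sensor largely restricted to mucosal epithelium.

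XBP1 and ATF6 are known to act through the ER stress element, a CCAAT box and a CCACG box held 9 bases apart. RefSeq promoter windows of the build GRCm38.p6, from 250 bases before to 50 bases after the start site, matched 27 of the 34 members. The element was searched on both strands as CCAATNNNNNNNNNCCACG. It was present in the promoters of 8 of the 27 members (29.6%) and of 37 of 27025 gene symbols in all (0.137%), which is a description of letters and not of binding. These stretches are shown because they are what the 8 members share outside the expression data. Each is written 5′ to 3′ on the gene's strand, with both boxes in capitals, on whichever strand they lie (CGTGG and ATTGG on the opposite one).
Hspa5: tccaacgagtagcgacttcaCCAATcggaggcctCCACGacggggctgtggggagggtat
Hsp90b1: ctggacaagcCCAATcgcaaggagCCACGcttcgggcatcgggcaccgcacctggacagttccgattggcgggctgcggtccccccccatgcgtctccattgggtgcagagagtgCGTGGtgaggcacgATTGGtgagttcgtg
Calr: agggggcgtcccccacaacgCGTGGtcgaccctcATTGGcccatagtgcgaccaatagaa
Canx: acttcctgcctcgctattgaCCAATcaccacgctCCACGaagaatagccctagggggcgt
Pdia6: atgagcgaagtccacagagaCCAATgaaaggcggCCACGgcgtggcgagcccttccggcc
Dnajc3: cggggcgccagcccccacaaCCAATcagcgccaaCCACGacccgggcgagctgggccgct
Creld2: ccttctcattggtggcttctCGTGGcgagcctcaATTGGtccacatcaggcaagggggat
Syvn1: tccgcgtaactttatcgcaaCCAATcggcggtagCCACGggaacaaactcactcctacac
The stretches lie at chr2:34772005-34772064 on the plus strand (Hspa5), chr10:86705523-86705666 on the minus strand (Hsp90b1), chr8:84847054-84847113 on the minus strand (Calr) and chr11:50325779-50325838 on the minus strand (Canx). Those of the other members lie on the plus strand at chr12:17266471-17266530 (Pdia6), chr14:118937807-118937866 (Dnajc3), chr15:88819500-88819559 (Creld2) and chr19:6046512-6046571 (Syvn1). The Hsp90b1 promoter holds the element in both orientations, beginning 212 and 107 bases before the start site, and that of Syvn1 lies nearest to its start, at 44 bases. The Hspa5 stretch precedes the RefSeq start site but lies within the gene span given below, which comes from another annotation (GENCODE M21).

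The related element with the boxes 1 base apart, ATTGGNCCACG, was found in 2 members, Herpud1 and Dnajb11 (7.41%), and in 12 symbols in all (0.0444%). The Herpud1 stretch lies at chr8:94386353-94386412 on the plus strand, with the element 52 bases before the start site, and is shown because Herpud1 had the largest difference in response between colonoids and colonocytes.
Herpud1: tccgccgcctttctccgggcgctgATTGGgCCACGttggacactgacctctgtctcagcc
The core TGACGTGG, bound by XBP1 and ATF6, was in no member's window and in 193 symbols in all (0.714%). The core TGATGNAA of the ATF4 composite element was in 2 members, Herpud1 and Trib3 (7.41%), and in 1219 symbols (4.51%).

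Within each untreated group the same 5 genes led when CPM was divided by merged exon length. Colon control libraries held P4hb at a mean of 420 CPM per kb, Pdia3 at 409 and Calr at 392, and the 3 libraries of each neighbouring pair in that order overlapped. Hsp90b1 (229) and the chaperone BiP, encoded by Hspa5 (192), followed. Untreated colonocytes held Calr at 729, P4hb at 488, Pdia3 at 340, Hsp90b1 at 326 and Hspa5 at 206 CPM per kb. Vehicle colonoids held P4hb at 368, Calr at 257, Pdia3 at 225, Hsp90b1 at 185 and Hspa5 at 162. Among listed members the lowest was Ern1 in colon (2.19 CPM per kb) and colonoids (2.86) and Trib3 in colonocytes (6.98). Trib3 in colon and Ern2 in colonocytes are not listed and have no value. The tables were normalized separately, so levels are ordered within a system and not between systems.

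With TGFB1 and BMP2 the members had more rises than falls in the cultures labelled colonocytes and more falls than rises in colonoids, and in Smad4 knockout colon more rises than falls. A gene was called where limma's Benjamini-Hochberg adjusted p over all genes of its table was under 0.05, and log2 changes are on the log2(CPM + 1) scale, where changes of low genes come out too small. Values after ± are standard errors (SE), with n = 3 libraries per group. Each listed member passed the filter on low values. Pdia3, Pdia6, Ddit3, Dnajb11, Herpud1, Manf, Syvn1, Sec61a1, Sec63 and Ssr2 overlap a gene on the opposite strand, and the sources used here do not say how the counting treated strand, so reads of such partners may be mixed in. Hsp90b1 and Manf also overlap a gene on their own strand (Gm15344 and Rbm15b), which strand cannot separate. In bulk samples, fewer cells of a type and less RNA per cell cannot be told apart.

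**Figure D1:**
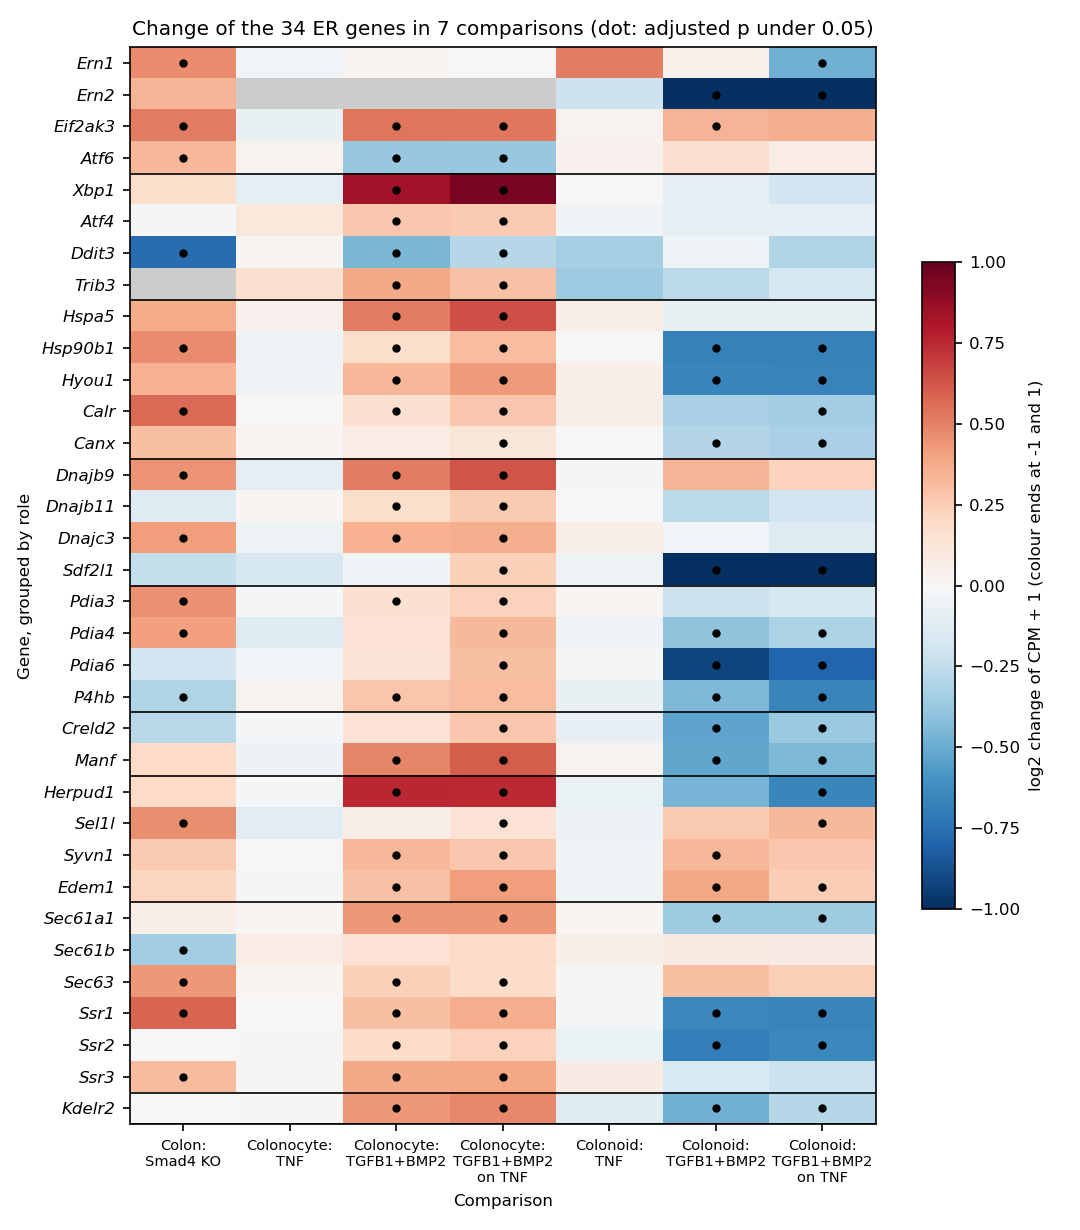
Heat map of the log2 change (log2(CPM + 1), treated or knockout minus control) of the 34 genes, grouped by role (vertical axis), in the 7 comparisons (horizontal axis), with a dot on called changes and grey where a gene is not listed. Most cells are positive in both colonocyte columns with TGFB1 and BMP2 and negative in both colonoid columns with them. The TNF columns hold no dot and run from -0.16 to 0.16 in colonocytes and from -0.37 to 0.51 in colonoids. The Ern2 changes of -3.32 and -3.24 lie beyond the colour scale.

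In Smad4 knockout colon, 13 of 33 tested members (39.4%) rose against 19.8% of all genes, and 3 (9.09%) fell against 19.9% of all genes. The members' median log2 change was 0.30, beside 0.00196 over all genes. By role, rises were called for 3 of 4 sensors, 2 of 5 chaperones and lectins, 2 of 4 J proteins and partners, 2 of 4 disulfide isomerases, 1 of 4 degradation genes and 3 of 6 translocon genes, and the losses were Ddit3, Sec61b and P4hb. The 3 knockout libraries lay wholly above the control libraries for 14 members and wholly below for 3, where 25% and 25.2% of all genes did so.

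Among the sensors, Eif2ak3 (PERK, the kinase that slows translation under ER stress) stood at 51.2, 52.3 and 54.6 CPM in control libraries and 79.8, 78.6 and 70 CPM in knockout libraries. Every knockout library was above every control, and the log2 change was 0.52 ± 0.10 (SE, n = 3 per group, adjusted p = 0.00304 by limma). Ern1, on chromosome 11 with IRE1α as its product, rose from 17.3, 18.2 and 18.1 to 32, 24.5 and 20.2 CPM. The lowest knockout library was only just above the controls, with a log2 change of 0.47 ± 0.16 (SE, n = 3 per group, adjusted p = 0.0386 by limma). Atf6 was also called, at a log2 change of 0.33. The mucosal sensor Ern2 (chr7:122169893-122186207, minus strand, mm10) was not called: control libraries held 82.1, 88.1 and 80.1 CPM and knockout libraries 129, 109 and 83.9 CPM, with overlap of the groups and an adjusted p of 0.088 by limma.

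Of the 3 transcription factors 1 fell and none rose. Ddit3, the proapoptotic factor CHOP (chr10:127290774-127296288, plus strand), had 8.28, 8.98 and 8.64 CPM in control and 5.36, 5.05 and 3.79 CPM in knockout libraries. All knockout libraries were below all controls, a log2 change of -0.76 ± 0.15 (SE, n = 3 per group, adjusted p = 0.00374 by limma) and the largest fall of any member in this tissue. Xbp1 (chr11:5520659-5525893, plus strand), whose spliced mRNA encodes the main activator of folding genes, stood at 277, 291 and 293 CPM against 308, 337 and 331 CPM. The groups did not overlap, yet the change of 0.18 was not called (adjusted p = 0.138 by limma). Atf4, the translationally controlled factor downstream of PERK, had 219, 189 and 184 CPM and then 196, 201 and 184 CPM, which overlap.

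Calr, the calcium-binding lectin calreticulin, had 1313, 1034 and 1043 CPM in control and 1574, 1757 and 1659.7 CPM in knockout libraries, with a log2 change of 0.57 ± 0.12 (SE, n = 3 per group, adjusted p = 0.00573 by limma). Hsp90b1, the ER member of the HSP90 family, had 1104, 794 and 877 CPM against 1164, 1322 and 1324 CPM, a log2 change of 0.47 ± 0.13 (SE, n = 3 per group, adjusted p = 0.0197 by limma). For Calr and for Hsp90b1, the highest control library was replicate 1. BiP (Hspa5; chr2:34771970-34777547, plus strand) had 997, 699 and 742 CPM in control and 848, 1079 and 1231 CPM in knockout libraries. Control replicate 1 was above knockout replicate 1, and the change of 0.37 was not called (adjusted p = 0.101 by limma). Leaving that library out gave Hspa5 a change of 0.53 with an adjusted p of 0.028 by limma.

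Ssr1, a subunit of the signal-sequence receptor at the translocon, had 309, 239 and 258 CPM in control and 353, 435 and 418 CPM in knockout libraries. Its log2 change of 0.58 ± 0.12 (SE, n = 3 per group, adjusted p = 0.00514 by limma) was the largest gain among the members. Sec61b, the small β subunit of the channel, moved the other way, from 142, 139 and 136 to 97.1, 106 and 126 CPM (-0.35 ± 0.11 in log2, limma adjusted p = 0.0291). P4hb, the founding disulfide isomerase, also fell, from 1165, 1237 and 1198 to 961, 929 and 1031 CPM (-0.30 ± 0.10 in log2, limma adjusted p = 0.034). In both the knockout libraries lay wholly below the controls, while the isomerases Pdia3 and Pdia4 rose by 0.46 and 0.41 on the log2 scale. The remaining called gains were Sel1l (0.47), Dnajb9 (0.45), Sec63 (0.43), Dnajc3 (0.42) and Ssr3 (0.31).

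Goblet cell markers fell in the same libraries: 9 of 13 were called lower and 2 higher, and their sum went from 16220 to 16830 CPM in controls to 9969 to 12950 CPM in knockouts. The 12 epithelial markers, of which 4 were called lower and 1 higher, summed to 16550 to 17610 CPM in controls and 12760 to 15260 CPM in knockouts. Absorptive markers (8 listed) summed to 14120 to 15750 and 8912 to 13270 CPM, and leukocyte markers (10 of 12 listed) to 66.9 to 92.4 and 60.3 to 78.2 CPM. Stromal markers (2 of 9) summed to 21.5 to 22.6 and 14.5 to 17 CPM, and plasma cell markers (2 of 10) to 228 to 270.0 and 192 to 247 CPM. These 2 plasma cell markers were Igj and Sdc1. Of them 1 was called higher, at 1.25 on the log2 scale, and the other was not called at -0.27, so their sum hides opposite changes. The part of these shifts in the members' changes was not tested. The 16 calls fell to 6 without control replicate 2, to 9 without control replicate 3 and to 6 without knockout replicate 2, and without control replicate 1 they were 15, with Ern1 and Sec61b lost. Ern1 and Sec61b were called only with all libraries or without knockout replicate 3, with adjusted p-values of 0.0766 to 0.0985 and 0.0636 to 0.106 by limma without each of the others. P4hb was not called without control replicates 2 or 3 or knockout replicates 1 or 2 (0.0537 to 0.15), nor Hsp90b1 without control replicates 2 or 3 or knockout replicate 2 (0.0644 to 0.104). Ern2 was called without knockout replicate 3 (0.50, adjusted p = 0.00806 by limma).

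**Figure D2:**
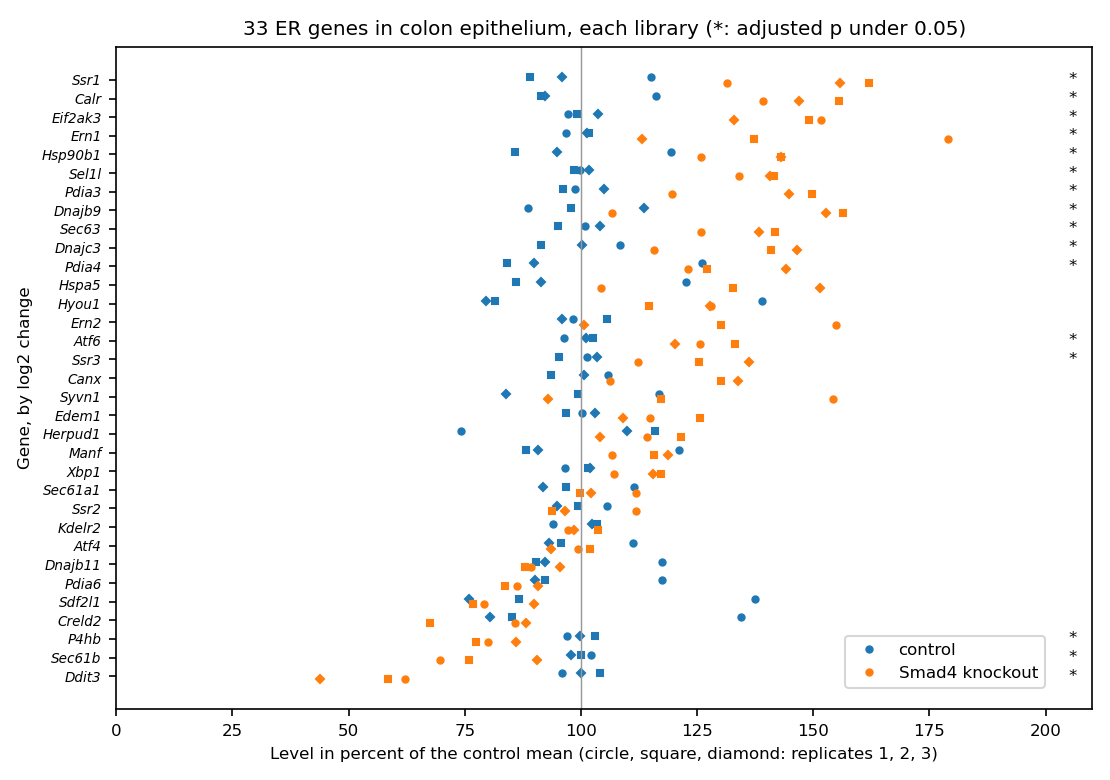
Level of 33 members (vertical axis, ordered by log2 change) in each control and Smad4 knockout colon library, in percent of the control mean (horizontal axis), with 1 point per library, a shape per replicate and an asterisk for called genes. Eif2ak3, Ssr1 and Calr lie higher and Ddit3, Sec61b and P4hb lower in all 3 knockout libraries, while for Hspa5 control replicate 1 (997 CPM) lies within the knockout range.

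The other ER genes of the knockout tables moved in both directions. Of 23 other ER chaperones and foldases 5 rose and 7 fell, with the oxidase gene Ero1l at 0.81 and Cnpy2 at -0.79 on the log2 scale. Among 21 further degradation genes 3 rose and 4 fell, and among 25 targeting and glycan transfer genes 4 rose and 2 fell. ER to Golgi transport genes counted 10 rises and 5 falls of 30, led by Creb3l2, an ER-anchored transcription factor, at 1.06. Of 24 targets of ATF4, 3 rose and 2 fell, the largest change being that of the cystine transporter Slc7a11 (2.14, adjusted p = 0.000258 by limma).

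TNF, a cytokine that activates NF-κB, changed no member in the cultures labelled colonocytes at the threshold used. None was called by limma, by edgeR or by DESeq2, and 3 of 33 (Pdia4, Atf4 and Sel1l) had an unadjusted limma p under 0.05. Of all genes 6.28% were called and 18.7% had an unadjusted p under 0.05. Their log2 changes ran from -0.16 (Sdf2l1) to 0.16 (Trib3). Hspa5 stood at 857, 909 and 892 CPM without and 885, 937 and 917 CPM with TNF. Xbp1 had 70.2, 73.3 and 63.4 CPM and then 64.5, 66.5 and 62.1 CPM, and Ddit3 20.9, 24.6 and 24 CPM and then 23.1, 21.6 and 25.9 CPM. The groups overlapped for these 3 genes. Atf4 did not overlap, with 344, 341 and 374 CPM in untreated and 379, 374 and 383 CPM in TNF cultures, at a log2 change of 0.10 (adjusted p = 0.251 by limma).

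Same-numbered colonocyte replicates deviated together in this comparison, and a fit with the replicate block called 3 members against 20.3% of all genes. Atf4 rose (adjusted p = 0.0125 by limma with the block), while Pdia4 and Sel1l fell by 0.13 and 0.11 on the log2 scale. Without the block, of 30 ER to Golgi genes, 25 targeting genes and 23 other chaperones none was called, with 1, 0 and 2 at an unadjusted limma p under 0.05. Of 25 ATF4 targets 3 rose, Slc7a11 (0.73), Atf3 (0.66) and Nupr1 (0.42).

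TGFB1 with BMP2 raised most members in colonocytes: 23 of 33 (69.7%) rose against 15.9% of all genes and 2 (6.06%) fell against 14.3%. The members' median change was 0.27 on the log2 scale and that of all genes -0.00333. Treated libraries lay wholly above the untreated ones for 24 members and wholly below for 2, against 22.3% and 21.2% of all genes. The gains spread over every role, and the sensor Atf6 and the factor Ddit3 were the 2 that fell.

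Xbp1 gained most. Untreated cultures held 69.1, 72.1 and 62.1 CPM and treated cultures 128, 123 and 114 CPM, a mean at 179.6% of the untreated mean, with a log2 change of 0.84 ± 0.07 (SE, n = 3 per group, adjusted p = 5.12e-07 by limma). Atf4 went from 339, 335 and 366 to 416, 414 and 426 CPM (0.27 ± 0.05 in log2, limma adjusted p = 0.000655). Ddit3 went down, from 20.5, 24.2 and 23.5 to 15.8, 15.3 and 17.8 CPM (-0.46 ± 0.09 in log2, limma adjusted p = 0.00148). For each of these 3 genes the treated and untreated libraries did not overlap. The pseudokinase Trib3, rose by 0.38 on the log2 scale.

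The sensors split. Eif2ak3 rose from 46.4, 47.5 and 41.1 to 64.9, 68.7 and 63.3 CPM (0.54 ± 0.07 in log2, limma adjusted p = 3.99e-05), Atf6 fell from 131, 125 and 136 to 101, 103 and 96.3 CPM (-0.38 ± 0.05 in log2, limma adjusted p = 8.90e-05), and Ern1 was not called at a change of 0.02. For Eif2ak3 and Atf6 the treated and untreated libraries were separate. Among chaperones Hspa5 changed most, from 843, 894 and 874 to 1210.1, 1289 and 1227 CPM (0.51 ± 0.05 in log2, limma adjusted p = 1.85e-06). Hyou1 (0.33), Hsp90b1 (0.17) and Calr (0.16) were also called and Canx (0.07) was not. Dnajb9, a J protein that binds BiP and restrains IRE1α, rose from 32.8, 32.8 and 35.4 to 49, 51.7 and 44.6 CPM (0.51 ± 0.07 in log2, limma adjusted p = 8.87e-05).

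Degradation and translocation genes moved with the chaperones. Herpud1, which scaffolds the HRD1 ubiquitin ligase, had 100.1, 99 and 84.3 CPM untreated and 170.2, 166 and 144 CPM treated, at 0.76 ± 0.08 (SE, n = 3 per group, adjusted p = 4.89e-06 by limma). The ligase gene itself, Syvn1, rose by 0.33, the mannosidase-like Edem1 by 0.29, and the ligase partner Sel1l was not called (0.06). Of the 6 translocon and signal-sequence receptor genes 5 rose, with Sec61a1 at 0.43 and Ssr3 at 0.38. Kdelr2, the receptor that returns KDEL-tagged proteins from the Golgi, rose by 0.43, and the secreted stress protein Manf by 0.49.

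With TNF present 29 of 33 members (87.9%) rose against 16.4% of all genes and 2 (6.06%) fell against 15.6%. All 23 genes that rose without TNF also rose with it, as did both falls. The TNF and the TGFB1 with BMP2 comparisons share their untreated libraries, and this one shares the TNF libraries with the TNF comparison. Xbp1 went from 61.9, 63.9 and 59.7 to 127, 124 and 111 CPM (0.95 ± 0.06 in log2, limma adjusted p = 1.57e-07). Hspa5 went from 849.7, 900.3 and 881 to 1363, 1413 and 1328 CPM (0.64 ± 0.04 in log2, limma adjusted p = 3.14e-07). Herpud1 stood at 97.6, 89.4 and 87.7 CPM with TNF alone and 169, 144 and 149 CPM with all 3 ligands (0.74 ± 0.06 in log2, limma adjusted p = 2.47e-06). In each case the libraries of the groups were fully apart, as they were for 29 members above and 2 below, beside 22.9% and 22.5% of all genes.

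Dnajb9 rose from 28.5, 32.3 and 31.7 to 50.6, 49.9 and 44.5 CPM (0.63 ± 0.07 in log2, limma adjusted p = 2.34e-05). Manf, a secreted neurotrophic stress protein, rose from 108, 116 and 113 to 176, 177 and 161 CPM (0.60 ± 0.05 in log2, limma adjusted p = 2.11e-06). Atf6 fell from 130.0, 125 and 136 to 99.3, 99.2 and 101 CPM (-0.38 ± 0.05 in log2, limma adjusted p = 5.33e-05). Ddit3 fell from 22.2, 20.8 and 24.9 to 19.4, 18 and 17.7 CPM (-0.28 ± 0.08 in log2, limma adjusted p = 0.0186), and Atf4 rose from 364, 359 and 367 to 435, 428 and 449 CPM (0.26 ± 0.04 in log2, limma adjusted p = 0.000274). Ddit3 was not called without TNF replicate 1, TNF replicate 3 or replicate 2 of the cultures given all 3 (adjusted p of 0.0545 to 0.063 by limma). The members called here and not without TNF were Canx, Sel1l, Sdf2l1, Creld2, Pdia6 and Pdia4, with changes of 0.12 to 0.33. With the replicate block Sec61b was also called (0.19, adjusted p = 0.00525 by limma).

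That TNF altered the response to TGFB1 and BMP2 was not shown. The interaction term called no member in colonocytes, where 0.00875% of all genes were called, and 3 of 33 (Pdia4, Pdia6 and Sdf2l1) had an unadjusted limma p under 0.05, as had 3.11% of all genes. In colonoids it called none of 34 members and 0% of all genes, with 1 (Ern1) at an unadjusted limma p under 0.05, as had 0.736% of all genes. By edgeR and DESeq2 the interactions also called 0 members.

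All 8 members with the 9-base-spaced ER stress element rose with TGFB1 and BMP2 under TNF in colonocytes, and 5 of the 8 did without TNF (Hspa5, Hsp90b1, Calr, Dnajc3 and Syvn1). Of all members 87.9% and 69.7% rose in these comparisons, so these counts show nothing particular to members with the element. Herpud1 and Dnajb11, with the 1-base spacing, rose in both. In knockout colon 3 of the 8 rose (Hsp90b1, Calr and Dnajc3) and none fell, and in colonoids given TGFB1 and BMP2 1 rose (Syvn1) and 4 fell (Hsp90b1, Canx, Pdia6 and Creld2).

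Stromal markers summed to 7010 to 7472 CPM in untreated and 7244 to 7909 CPM in treated colonocytes, with 3 of 8 listed called higher and 2 lower. The 3 keratins listed summed to 33.8 to 45.9 and 27.3 to 30.8 CPM. Their part in the members' rise was not tested. ER to Golgi transport genes rose along with the members, 26 of 30 in each colonocyte comparison, and none fell. The largest was Creb3l2, whose libraries went from 140.2, 146 and 122 to 419.9, 398 and 337 CPM (1.49 ± 0.08 in log2, limma adjusted p = 1.59e-08). Arfgap3, a coat-dissociation factor, rose by 0.76 and the retrieval receptor Kdelr3 by 0.71 on the log2 scale.

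Other targeting, translocation and glycan transfer genes counted 12 rises and 1 fall of 25 without TNF and 17 rises and 1 fall with it. Among 21 other degradation genes 7 rose and none fell without TNF, with 9 at an unadjusted limma p under 0.05, led by Ube2j1 (0.54). Other chaperones and foldases counted 8 rises and 2 falls of 23. ATF4 targets were balanced, with 4 rises and 4 falls of 25, and the largest was the fall of Chac1, a glutathione-degrading enzyme (-0.78).

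**Figure D3:**
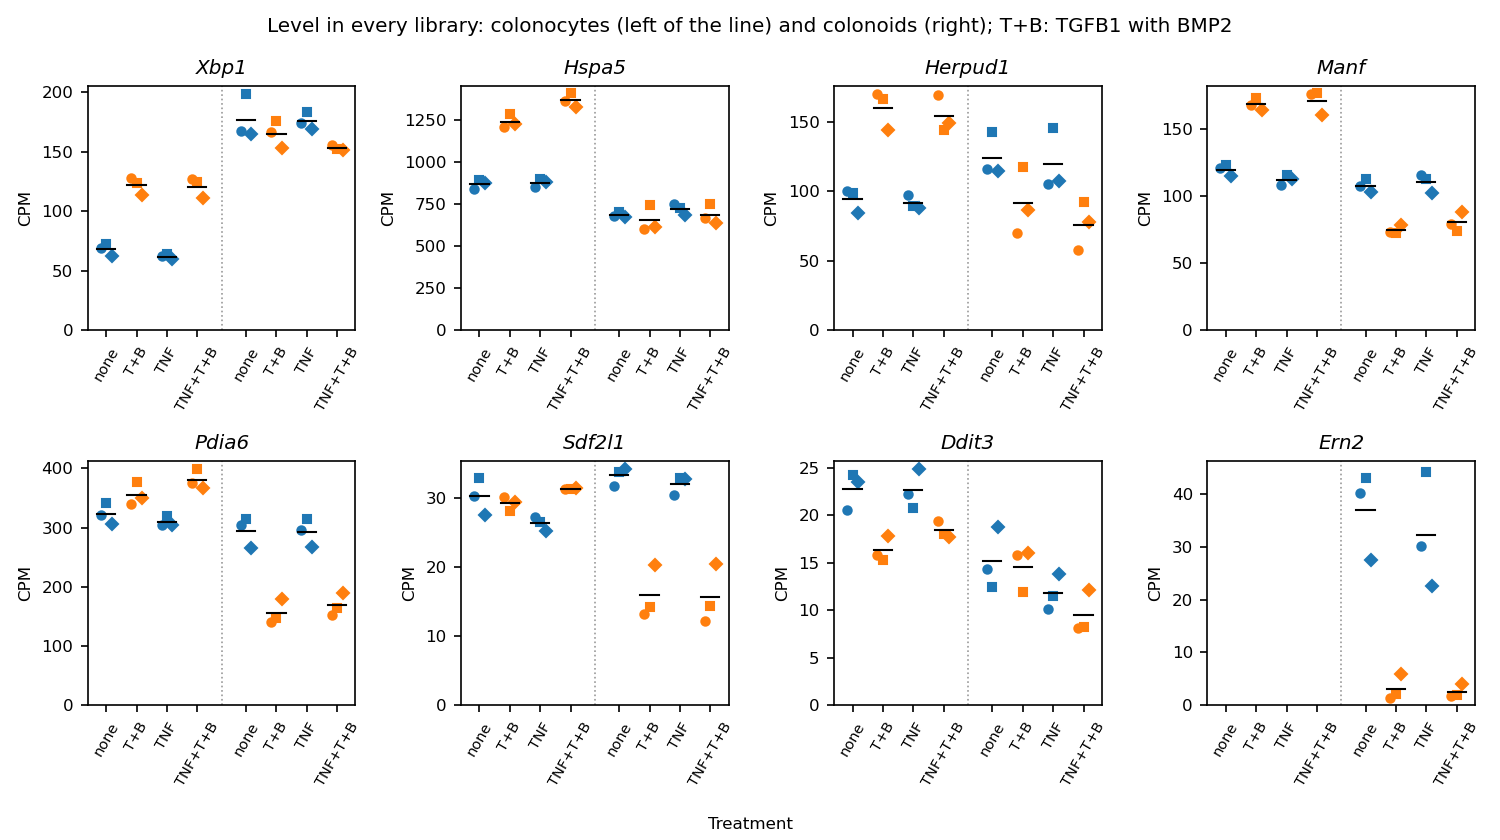
CPM (vertical axes, linear from 0) of 8 members in each group of colonocytes, left of the dotted line, and colonoids, right of it (none means untreated or vehicle), with 1 point per library, a shape per replicate or line and a bar at the group mean. In colonocytes Xbp1 and Hspa5 are higher in every library given TGFB1 and BMP2, in colonoids Ern2 drops from 27.5 to 42.9 CPM to between 1.3 and 6 CPM (Ern2 is not listed in colonocytes). Each table was normalized on its own.

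In colonoids TNF called no member by limma or edgeR, and DESeq2 called 1 (Ern1), where limma called 0.137% of all genes. Ern1 was also the 1 of 34 members with an unadjusted limma p under 0.05 (4.4% of all genes had one), at 29.6, 23.7 and 23.7 CPM with vehicle (lines L42, L43 and L46 in turn) and 35.3, 40.3 and 35 CPM given TNF. It was higher with TNF in each line, by 0.24, 0.74 and 0.55 on the log2 scale, and no TNF library reached down to the vehicle range (mean change 0.51, adjusted p = 0.356 by limma). Trib3 went from 30.2, 18.7 and 27.6 to 21.5, 15.5 and 21.2 CPM, lower in each line, although the groups overlap.

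Lines are shared between the groups, and with the line as a block the fit called 2 members against 6.14% of all genes. Ern1 rose (adjusted p = 0.0103 by limma with the block) and Trib3 fell (adjusted p = 0.0159). Hspa5 (756, 767 and 737 CPM with vehicle and 823, 795 and 754 CPM with TNF) and Xbp1 (185, 216 and 181 CPM and 191, 201 and 185 CPM) had overlapping groups. Ddit3 had 15.8, 13.6 and 20.5 CPM with vehicle and 11.1, 12.6 and 15.2 CPM with TNF, and Ern2 44.5, 46.7 and 30.2 CPM and 33, 48.3 and 24.7 CPM. Each of these 4 genes had an adjusted p of 1 by limma without the block. Ern1 and Ern2 are paralogs, so reads between them may be split with some uncertainty.

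TGFB1 with BMP2 lowered folding and translocation genes in colonoids. Of 34 members 14 (41.2%) fell against 28.7% of all genes and 3 (8.82%) rose against 28%, with a median change of -0.27 on the log2 scale beside -0.0154 over all genes. Treated libraries lay wholly below vehicle for 16 members and wholly above for 5, against 34.5% and 33.5% of all genes. The falls held 3 of 5 chaperones, 3 of 4 disulfide isomerases, both secreted stress proteins, 3 of 6 translocon genes and Kdelr2, and the 3 rises were Edem1, Eif2ak3 and Syvn1.

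Ern2 fell furthest. The lines L42, L43 and L46 held 40.2, 42.9 and 27.5 CPM with vehicle and 1.3, 2.18 and 6 CPM with TGFB1 and BMP2, a treated mean at 8.57% of the vehicle mean. The fall was seen in every line and was smallest in L46, with a log2 change of -3.32 ± 0.41 (SE, n = 3 per group, adjusted p = 0.00211 by limma). Eif2ak3 moved the other way, from 57.1, 49.4 and 51.5 to 72.3, 68.2 and 60.1 CPM (0.34 ± 0.11 in log2, limma adjusted p = 0.0319), while Ern1 and Atf6 were not called at 0.05 and 0.17.

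Neither the transcription factors nor BiP were called on the authors' scale. Xbp1 had 167, 198 and 165 CPM with vehicle and 166, 175 and 153 CPM treated, at a change of -0.09 (adjusted p = 0.463 by limma). Hspa5 had 682, 705 and 673 CPM and 605, 743 and 615 CPM, at -0.08 (adjusted p = 0.583 by limma). Both overlapped between the groups, as did Atf4 (259.6, 249 and 234 CPM against 260.2, 231 and 205 CPM) and Ddit3 (14.3, 12.5 and 18.7 CPM against 15.8, 12 and 16 CPM).

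Sdf2l1, a BiP cofactor found in complex with J proteins, fell from 31.7, 33.7 and 34.2 to 13.2, 14.2 and 20.3 CPM (-1.04 ± 0.17 in log2, limma adjusted p = 0.00396). Pdia6, an isomerase that also attenuates IRE1α, fell from 304, 315 and 266 to 141, 148 and 179 CPM (-0.92 ± 0.12 in log2, limma adjusted p = 0.0024). Both lost least in L46. Hsp90b1 fell from 713, 754 and 767 to 402, 468 and 535 CPM (-0.68 ± 0.13 in log2, limma adjusted p = 0.00577), beside Hyou1 (-0.65) and Canx (-0.29), whereas Calr (-0.32) was not called. Ssr2 fell from 161, 170.4 and 149 to 93.8, 102 and 102 CPM (-0.68 ± 0.09 in log2, limma adjusted p = 0.00226), beside Ssr1 (-0.64) and Sec61a1 (-0.36). For each gene named with its libraries here the treated values lay wholly below the vehicle values.

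Among the 4 degradation genes 2 rose and none fell. Edem1, which extracts misfolded glycoproteins from the folding cycle, rose from 105, 114 and 123 to 146, 164 and 139 CPM (0.39 ± 0.10 in log2, limma adjusted p = 0.0169). Syvn1 rose from 50.5, 42 and 44.9 to 58.9, 62.3 and 52.5 CPM (0.33 ± 0.11 in log2, limma adjusted p = 0.0385). All treated libraries were above all vehicle libraries for both genes. With the line as a block the called members were 5 up (14.7%) and 16 down (47.1%), beside 30.4% and 31.7% of all genes. Dnajb9 and Sec63 were added to the rises and Herpud1 and Dnajb11 to the falls.

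Each of the 3 rises was lost without some single libraries, 4 of the 6 for Eif2ak3 and Syvn1 (adjusted p of 0.0838 to 0.114 and 0.104 to 0.113 by limma) and 2 for Edem1 (0.0502 without the L43 treated library and 0.0684 without the L42 vehicle library). The rises also depended on the scaling. When reads were scaled to the total of listed reads in place of the authors' normalization, the median of all genes moved to -0.278 on the log2 scale. Edem1 then changed by 0.11, Eif2ak3 by 0.06 and Syvn1 by 0.06 and none was called, while Hspa5 (-0.35), Xbp1 (-0.37) and Atf4 (-0.38) became called falls, giving 0 rises and 22 falls. Among all called genes 49.5% were higher on the authors' scale and 28.5% with total scaling. Relative to the median of all genes, the members' median was -0.255 on the authors' scale and -0.262 with total scaling.

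All 17 called members changed in the same direction in each of the 3 lines. L46 had the smallest change for 15 of the 17, as it had for 88.7% of all called genes, and its median absolute change over all genes was 0.323 against 0.523 in L42 and 0.582 in L43. The members' median change was -0.337 in L42, -0.21 in L43 and -0.228 in L46.

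**Figure D4:**
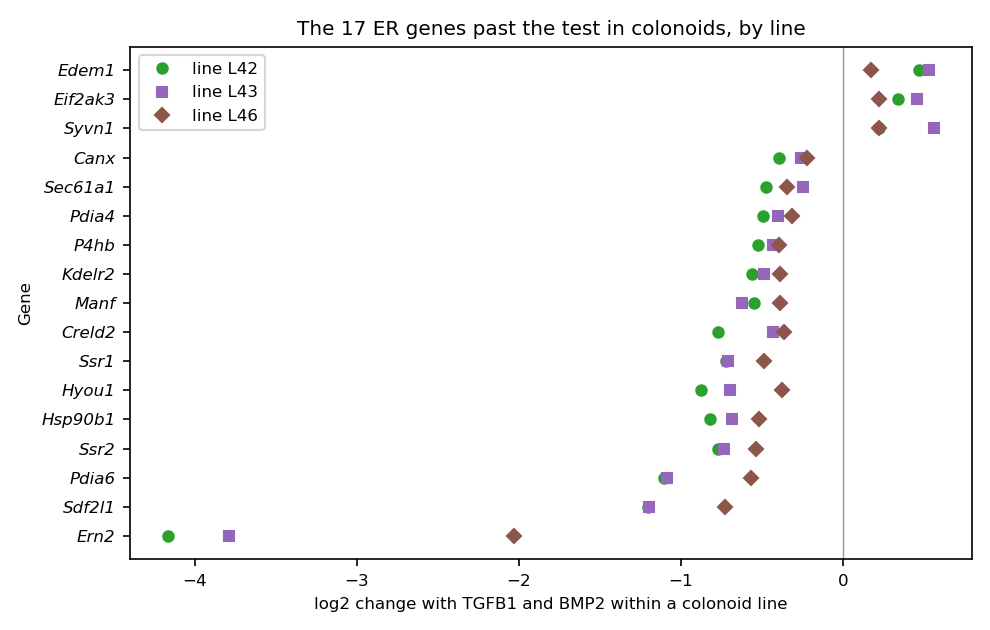
Log2 change of members called with TGFB1 and BMP2 against vehicle in colonoids (horizontal axis, log2(CPM + 1)), with 1 point for each line L42, L43 and L46 per gene. The 3 points of a gene lie on the same side of 0 for all 17 genes, and the L46 point lies nearest to 0 for 15 of them.

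Added to TNF, TGFB1 and BMP2 lowered 17 of 34 members (50%) against 27.7% of all genes and raised 2 (5.88%) against 26.4%. All 14 genes that fell without TNF fell here too, and Edem1 rose in both. Ern2 went from 30.1, 44.1 and 22.5 to 1.69, 1.85 and 4.08 CPM (-3.24 ± 0.33 in log2, limma adjusted p = 0.00158), Sdf2l1 from 30.4, 32.8 and 32.7 to 12.2, 14.3 and 20.4 CPM (-1.02 ± 0.19 in log2, limma adjusted p = 0.00582) and Pdia6 from 295, 314 and 267 to 153, 164 and 189.7 CPM (-0.79 ± 0.11 in log2, limma adjusted p = 0.00298). In all 3 the groups were fully apart. Hsp90b1 fell from 766, 720.2 and 741 to 437, 454 and 507 CPM (-0.67 ± 0.10 in log2, limma adjusted p = 0.00324). Hyou1, a BiP nucleotide exchange factor, fell from 177, 172 and 167 to 103, 101 and 119.7 CPM (-0.67 ± 0.09 in log2, limma adjusted p = 0.00279). The further falls not called without TNF were Calr (-0.35), Herpud1 (-0.66) and Ern1 (-0.48).

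The rises were Sel1l, from 116, 106 and 111 to 145, 147 and 125 CPM (0.32 ± 0.10 in log2, limma adjusted p = 0.0273), and Edem1, from 104, 109.6 and 116 to 136, 128 and 128 CPM (0.25 ± 0.08 in log2, limma adjusted p = 0.0409). With the line as a block Eif2ak3 was called as a rise (0.36, adjusted p = 0.0493 by limma), having missed the threshold without it (adjusted p = 0.0676). Edem1 was no longer called with that block (adjusted p = 0.0574 by limma) and stood at -0.01 with total scaling. Xbp1 had 174, 183 and 169 CPM with TNF alone and 156, 152 and 151 CPM with all 3 ligands, separate but not called (-0.19, adjusted p = 0.0679 by limma). Hspa5 (-0.07), Atf4 (-0.09) and Ddit3 (-0.30) overlapped between the groups and were not called. Treated libraries lay wholly below for 19 members and wholly above for 2, beside 34.1% and 32.2% of all genes. Calls dropped to between 10 and 12 when any 1 library other than the L46 library with all 3 ligands was left out and rose to 23 without that one. Sel1l and Edem1 were each lost without any of those 5 libraries (adjusted p of 0.0553 to 0.0974 and 0.0536 to 0.139 by limma), and Ddit3 was called as a fall without the L46 library with all 3 ligands (-0.47, adjusted p = 0.0326).

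Goblet cell markers fell in the same colonoids, 10 of 12 listed without TNF and 11 of 12 with it, and 1 rose in each. Their summed level went from 997 to 1697 CPM with vehicle to 319 to 384 CPM with TGFB1 and BMP2, and from 834 to 1465 to between 254 and 289 CPM under TNF. The 12 epithelial markers together summed to 10340 to 12590 CPM with vehicle and 27050 to 36170 CPM with TGFB1 and BMP2. Stromal markers (2 of 9 listed) summed to 4.19 to 5.58 and 2.41 to 3.20 CPM, and leukocyte markers (3 of 12) at 8.35 to 12.2 and 6.04 to 12.9 CPM. Of the plasma cell markers only Sdc1 and Ly6d (2 of 10) were listed, both called higher, summing to 402 to 488 and 1086 to 1287 CPM. Igj, listed in colon, was not listed here. Sdc1 was also listed in the untreated cultures labelled colonocytes, at 255 to 279 CPM, so these 2 genes cannot be read as plasma cells. Absorptive markers (7 of 8 listed), 2 called higher and 2 lower, summed to 2908 to 3757 CPM with vehicle and 3822 to 7663 CPM with TGFB1 and BMP2. Although the sum was higher, 5 of the 7 changes were negative, with a median of -0.27 on the log2 scale. The highest change was 3.135 in both the absorptive and the epithelial list, and Krt20 is in both lists. The part of these marker shifts in the members' falls was not tested.

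Beyond the members, 15 of 22 other ER chaperones and foldases fell in colonoids and 1 rose. Pdia5, an isomerase, fell from 48, 52 and 32.1 to 3.66, 4.2 and 8.48 CPM (-2.85 ± 0.31 in log2, limma adjusted p = 0.00164), and the peroxiredoxin Prdx4 changed by -2.28 on the log2 scale. Targeting and glycan transfer genes counted 11 falls and 2 rises of 25, with the oligosaccharyltransferase subunit Ddost at -0.96. Of 26 ATF4 targets 13 fell and 4 rose, the serine synthesis enzymes Psat1 (-2.37) and Phgdh (-2.04) furthest. Other degradation genes counted 8 rises and 1 fall of 21 and Herpud2 at 1.02. ER to Golgi genes had 11 rises and 4 falls of 30, and there Creb3l1, an ER-anchored factor of secretory cells, fell from 86.9, 110.1 and 60.2 to 10.8, 13.7 and 19.2 CPM (-2.47).

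The response to TGFB1 and BMP2 itself differed between the systems. A test of the colonoid change minus the colonocyte change, on reads joined over both systems, called 23 of 33 members (69.7%) lower in colonoids against 28.3% of all genes and 1 (3.03%) higher against 26.6%. The median difference of the members was -0.54 on the log2 scale and that of all genes -0.0159. Members lower in colonoids included all 5 chaperones, all 4 disulfide isomerases, both secreted stress proteins, 3 of 4 J proteins and partners and 4 of 6 translocon genes.

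Herpud1 differed most, by -1.23 ± 0.23 (SE, 3 libraries per group, adjusted p = 0.0015 by limma). It had risen in colonocytes, and in colonoids went from 116, 142 and 115 to 70.2, 118 and 86.2 CPM. Pdia6 differed by -1.07 ± 0.14 (adjusted p = 0.000232 by limma), Manf by -1.02 ± 0.09 (adjusted p = 2.45e-05 by limma) and Sdf2l1 by -1.01 ± 0.19 (adjusted p = 0.00161 by limma). The difference was -0.99 ± 0.13 for Hyou1 (adjusted p = 0.000267 by limma). Atf6 was the member higher in colonoids, at 0.54 ± 0.12 (adjusted p = 0.00351 by limma): it fell in colonocytes and was not called in colonoids, where it had 85.7, 84.3 and 83.6 CPM with vehicle and 91.6, 109.7 and 85.1 CPM treated.

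Of the members, 8 were called as rises in colonocytes and as falls in colonoids without TNF, namely Hsp90b1, P4hb, Hyou1, Manf, Sec61a1, Ssr1, Ssr2 and Kdelr2, and all 8 differed by the test of the difference. These were 24.2% of the 33 members beside 2.3% of the genes tested in both systems, and with TNF the number was 15 (45.5% beside 2.49%). Syvn1, Edem1 and Eif2ak3 rose in both systems without TNF (9.09% beside 7.71%), and no member fell in both. For these 3 genes and for Ddit3, Dnajb9, Sel1l, Ern1, Sec61b and Sec63 the difference was not called, although with the replicate block it was for Ddit3 (0.40, adjusted p = 0.0389 by limma). That block also pairs the colonocyte libraries by number, which was not taken as a pairing for TGFB1 with BMP2 alone. Of the 8 members with the 9-base-spaced element, 7 were lower in colonoids by this test, Syvn1 being the other, beside 23 of all 33 members.

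The sources used here do not give the colonocyte doses, the cell types differ by their markers, and the tables of each experiment were normalized on their own, so system, dose and experiment cannot be told apart. On total-read scaling the test called 24 members lower and 1 higher, and of all called genes 33.8% were higher in place of 48.4%. In colonocytes that scaling gave 18 rises in place of 23 without TNF and 24 in place of 29 with it, with 2 falls each, while the share of higher calls among all called genes went from 52.6% to 29.8% and from 51.2% to 29.3%. For TNF in colonocytes it went from 73.4% to 59.9%, and for TGFB1 with BMP2 under TNF in colonoids from 48.8% to 28.2%, with 0 rises and 24 falls among the members.

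**Figure D5:**
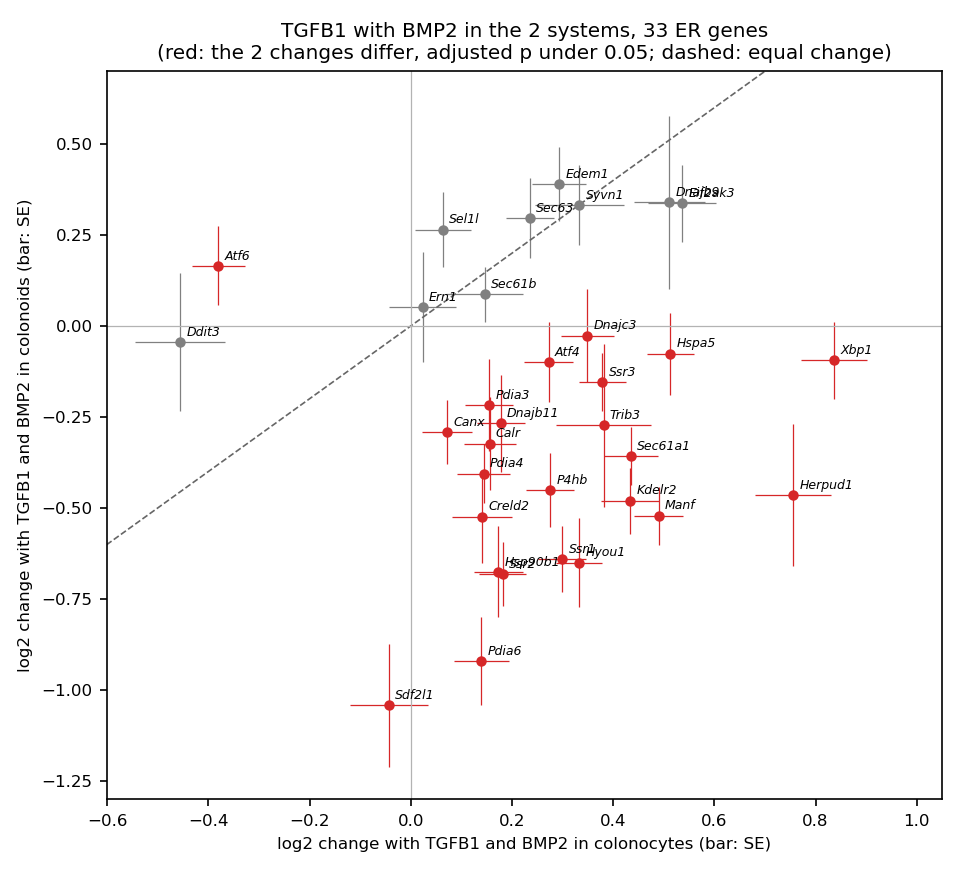
Log2 change with TGFB1 and BMP2 (log2(CPM + 1)) of each member in colonocytes (horizontal axis) and in colonoids (vertical axis), without TNF, in red where the difference was called, with SE bars and a dashed line of equal change. Most members lie to the right of 0 and below 0, with Syvn1, Edem1 and Eif2ak3 above 0 on both axes and Atf6 to the left.

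Members called both in the Smad4 knockout colon and in colonoids given TGFB1 and BMP2 numbered 5. Hsp90b1, Pdia4 and Ssr1 rose in the knockout and fell in these colonoids (9.09% of 33 members beside 4.31% of the genes tested in both). Eif2ak3 rose in both (3.03% beside 7.32%) and P4hb fell in both (3.03% beside 7.1%), and no member fell in the knockout and rose in the colonoids (0% beside 4.11%).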

How the data were processed

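mRNA of 30 libraries was sequenced after TruSeq Stranded library preparation, per the labels, in 10 groups of 3. The authors deposited 7 tables of 6 libraries each, 1 per pair of groups. Their library columns hold a signal in CPM, normalized by the authors within each table. Per the file headers, each deposited table also has a log2 fold change, an average on the log2 CPM scale, a p-value and an FDR made by the authors. These were not used for the calls here. TopHat2 2.1.0, HTSeq 0.5.4p5, edgeR 3.4.2, SAMtools 1.3.1, bcl2fastq 2.16, CASAVA and the build mm10 are named in the submitters' processing notes. The sources used here do not give their roles or how counting treated strand, so reads of overlapping genes and of paralogs are uncertain.

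The low values stepped by whole reads, and 100% of the values lay within 0.05 of a whole number of reads. Each comparison was fitted with limma 3.58.1 (R 4.3.3), with a trended prior, on log2(CPM + 1) over the 6 libraries of its table. Genes were tested where their mean reached 1 CPM, p-values were Benjamini-Hochberg adjusted over all of them, and an adjusted p under 0.05 was called. The interactions used recovered reads of 12 libraries per system with TMM scaling. The difference between systems used those of the 6 libraries per system without TNF, scaled in the same way. The difference between systems was added after the data were seen. Other pseudocounts (0.1), filters, scalings, left-out libraries, a replicate block, edgeR 4.0.16 and DESeq2 1.42.0 on recovered reads were alternatives. Summaries used Python 3.11.15 with numpy 2.4.6, pandas 2.3.3 and matplotlib 3.10.9. The fits were tested on simulated data with 200 changed genes.

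Members, gene lists and markers were chosen with earlier results of these data known. Named members were up to 5 called per direction with the largest change, with Hspa5, Xbp1, Atf4, Ddit3 and Ern2 always named, and up to 3 called genes of each other list. Other members are named with their change where a role is described, which was chosen after their values were seen. Lines pair the colonoid libraries, whose same-line deviations correlated at 0.283 to 0.887. In colonocytes, same-numbered replicates correlated above 0.1 in the TNF comparison (0.27, 0.274 and 0.522) and in TGFB1 with BMP2 added to TNF (0.17, 0.163 and 0.411) and were taken as paired there. With all 3 ligands, TNF replicate 2 was matched best by replicate 1, so the pairing in that comparison is less certain. Same-numbered replicates were not taken as paired for TGFB1 with BMP2 alone (0.246, 0.0482 and 0.251) or in colon (0.0658, 0.123 and -0.00611). Replicates differed by more than counting noise in every group, and none was a repeat of another.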

Additional observations from a re-analysis of the deposited data

Results flagged for a closer look

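Of the members, 6 that the test between systems named differed in their response to TGFB1 and BMP2. Values are the colonoid change minus the colonocyte change on the log2 scale (limma, adjusted p from 2.45e-05 to 0.00351, 6 libraries per system). Herpud1 differed by -1.23, Pdia6 by -1.07, Manf by -1.02, Sdf2l1 by -1.01 and Hyou1 by -0.99, all lower in colonoids. Atf6 differed by 0.54 and was higher in colonoids. In Herpud1, Manf and Hyou1 the colonocyte change was a called rise and in Atf6 a called fall, and in Pdia6, Manf, Sdf2l1 and Hyou1 the colonoid change was a called fall.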

How the results depend on the processing

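Leaving out each library in turn gave 6 to 15 calls for the knockout (16 with all), 0 to 1 for TNF in colonocytes (0), 10 to 23 for TGFB1 with BMP2 added to TNF in colonoids (19) and 0 for TNF in colonoids. The single TNF call in colonocytes, Atf4, came without control replicate 3. The same step gave 21 to 25 for TGFB1 with BMP2 in colonocytes, 27 to 30 with TNF, 14 to 20 in colonoids and 21 to 24 for the difference between systems. The replicate block gave 3 calls for TNF in colonocytes and 2 for TNF in colonoids, where DESeq2 gave 1. In knockout colon and for TGFB1 with BMP2 alone in colonocytes, where the numbers do not pair the samples, the block gave 17 and 27 calls and called Ern2 (adjusted p = 0.0404 by limma) in colon. Apart from these and the calls the report gives with the block, it changed no call of a named member.

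Of 66 named results 50 kept direction and call under every alternative and 16 did not under at least 1. Fits by edgeR and DESeq2 on recovered reads changed none of the 66. The authors' deposited FDR was above 0.05 for some named calls. In colonoids given TGFB1 with BMP2 these were Edem1 (0.063), Eif2ak3 (0.159) and Syvn1 (0.182), and under TNF Sel1l (0.124) and Edem1 (0.253). In the knockout P4hb was above it (0.0682) and Ern2, not called here, below it (0.0489). Called members outside the named results were above it too. In colonoids given TGFB1 with BMP2 these were Creld2 (0.0539), Sec61a1 (0.0709) and Canx (0.157). Under TNF there they were Sec61a1 (0.077), Calr (0.0978), Ern1 (0.102), Canx (0.106), Pdia4 (0.13), Creld2 (0.174) and Kdelr2 (0.211). Ssr3 in the knockout (0.0575) and Canx with all 3 ligands in colonocytes (0.0536) were also above it. Sec61a1 was among the 8 members with opposite calls in the systems without TNF. With total listed reads as scaling Ddit3 under TNF in colonocytes was -0.0099 and Edem1 under TGFB1 with BMP2 added to TNF in colonoids -0.0081. Without single libraries the log2 change ranged from -0.0701 to 0.0569 for Atf4 in the knockout, from -0.0473 to 0.0799 for Ddit3 under TNF in colonocytes and from -0.17 to 0.11 for Ddit3 under TGFB1 with BMP2 in colonoids. Under TNF in colonoids it ranged from -0.0543 to 0.0732 for Xbp1, from -0.0886 to 0.0401 for Atf4 and from -0.46 to 0.0059 for Ern2. None of these changes was called under the setting that reversed it. The cause was not tested, beyond the smaller number of libraries. The 3 libraries per group limit small changes, and a gene under the authors' expression filter has no value.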

Other observations

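Cytosolic chaperones, which fold proteins outside the ER, were counted for comparison. With TGFB1 and BMP2 in colonocytes 4 of 18 rose and 2 fell, with Bag3, a cochaperone of HSP70, at 0.61 and Hspa4, its nucleotide exchange factor, at 0.56 on the log2 scale. In colonoids 7 of 18 rose and 6 fell, with Bag3 at 1.38 (from 48.6, 48.3 and 54.8 to 143, 173 and 94.9 CPM), Hspa4 at 0.92 and Hsph1 at -0.90. Bag3 was also called in knockout colon (0.43), where 2 of 17 rose and 1 fell. TNF called none of the 18 in either system by limma, with 5 at an unadjusted p under 0.05 in colonocytes and 0 in colonoids. The list's median change was 0.04 in colonocytes and -0.26 in colonoids.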
